A study of Mus musculus with 4 samples.

Results

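The genes described here encode the translation initiation factors (eIF) and elongation factors (eEF) of the mouse, with the kinases, methyltransferases and inhibitory proteins that carry the same name stems. Membership was set by symbol, and no measured value enters the rule. Every autosomal protein-coding gene whose symbol begins with Eif or Eef followed by a digit was taken, which gave 64 of the 20620 autosomal protein-coding genes and of the 50600 genes counted in all. By role they fall into the eIF1 family (4 genes), the eIF2 group with its exchange factor and kinases (13), the eIF3 complex (14), the eIF4 group (16), eIF5 and eIF6 (5) and the elongation factors with their modifiers (12).

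Initiation factors bring the initiator tRNA and the small ribosomal subunit to the cap of an mRNA, unwind its leader and find the start codon. Elongation factors then deliver aminoacyl-tRNAs and move the ribosome along. In T cells this machinery is known to be built up on activation, when cells enlarge and divide, and 2 of its steps are known control points, namely the loading of eIF2 with GTP, which the Eif2ak kinases block, and the assembly of the cap-binding complex, which the Eif4ebp proteins block.

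RNA was sequenced from primary T-helper 2 (Th2) cells, the CD4 T cells that make interleukins 4, 5 and 13, of the mouse strain C57BL/6NJ. All 4 libraries belong to a single group of biological replicates, with no other treatment, genotype or time among them. The headers of the count tables carry 72 h in each library's name, sex was not collected and age is given as unknown. The labels list a biosample for each library but 1 donor for all. A p-value therefore weighs a difference against the spread among these samples alone, and part of that spread may be technical.

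Replicates 1, 3 and 4 held 2388255, 1929880 and 1713199 counts, and replicate 2 held 5016. A floor of 3 counts, expressed as CPM (counts scaled to the library total), was 598 CPM in replicate 2 and 1.26 to 1.75 CPM in the other libraries, and statements rest on replicates 1, 3 and 4 unless replicate 2 is named. The Y-linked factor gene Eif2s3y, left out by the autosomal rule, was not counted in replicate 1 and had 4 and 15 counts in replicates 3 and 4. Whether the libraries came from 1 animal was not tested. Of the marker lists, all 5 T cell genes and all 6 Th2 genes were counted. Ifng, Il17a, Ms4a1, Itgam, Klrb1c and Ncr1, markers of other lineages, had no count, and Lyz2 had 1.

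All values are fragments counted on the annotated strand of a gene. This matters for the factor genes because 17 of the 64 (26.6%) share exon bases with a gene on the other strand, against 22.9% of all autosomal protein-coding genes. Fragments were counted with the setting that puts read 1 on the strand of the gene, per the file headers, and counts under another setting were not analysed here. The sources used here do not say which strand the library kit keeps, so whether this setting fits the libraries is not known. If it does not, every own-strand level, order, ratio and share below describes RNA of the other strand. Whether the count of a gene that lies opposite another came from its own RNA was not tested. The 17 genes form 20 pairs with their opposite-strand genes, 12 with a protein-coding and 8 with a noncoding gene. In 7 pairs the shared bases include coding sequence of the factor gene.

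The sequences below are coding exons of factor genes across which an opposite-strand gene was annotated, and they show which bases the counts of both strands have in common. Each is printed on the strand of the factor gene from the GENCODE vM21 transcripts (GRCm38, the mm10 assembly), with the bases inside an exon of the opposite-strand gene in capitals.
Eif3d opposite Gm17638, chr15:77961614-77961743, minus strand: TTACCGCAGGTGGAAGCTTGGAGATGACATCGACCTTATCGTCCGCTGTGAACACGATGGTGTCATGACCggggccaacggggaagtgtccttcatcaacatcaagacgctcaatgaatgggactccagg
Eif3d opposite Gm17638, chr15:77963178-77963325, minus strand: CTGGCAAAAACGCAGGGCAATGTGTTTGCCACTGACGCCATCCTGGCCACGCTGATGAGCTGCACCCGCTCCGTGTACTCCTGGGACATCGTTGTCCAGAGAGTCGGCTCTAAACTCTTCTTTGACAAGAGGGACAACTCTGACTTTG
Eif2ak1 opposite Ankrd61, chr5:143897165-143897276, plus strand: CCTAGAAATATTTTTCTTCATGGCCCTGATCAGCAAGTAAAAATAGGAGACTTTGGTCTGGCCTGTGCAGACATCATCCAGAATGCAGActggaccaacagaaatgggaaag
Eif2ak3 opposite Gm43292, chr6:70884770-70884892, plus strand: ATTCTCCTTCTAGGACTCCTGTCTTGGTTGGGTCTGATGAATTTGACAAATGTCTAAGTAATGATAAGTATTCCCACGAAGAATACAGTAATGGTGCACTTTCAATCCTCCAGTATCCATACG
Eef2k opposite Gm15774, chr7:120873309-120873409, plus strand: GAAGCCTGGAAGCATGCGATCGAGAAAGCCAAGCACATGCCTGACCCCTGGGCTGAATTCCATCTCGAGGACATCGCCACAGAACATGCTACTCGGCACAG
Eif3m opposite Ccdc73, chr2:104999724-104999841, minus strand: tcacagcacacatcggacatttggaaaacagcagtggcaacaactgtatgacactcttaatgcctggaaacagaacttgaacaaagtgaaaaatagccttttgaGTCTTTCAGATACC

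Together the 64 genes took 0.541% of all counts in replicate 1, with a Wilson 95% interval of 0.532 to 0.550 for the counting error. The share was 0.341% in replicate 3 (interval 0.333 to 0.349), 0.507% in replicate 4 (interval 0.497 to 0.518) and 0.738% in the shallow replicate 2 (interval 0.536 to 1.02). Replicate 3 was the lowest and its interval did not meet those of the other libraries. In all, 61 genes had a count in replicates 1, 3 and 4. The 3 without one were Eef1a2, known from muscle and neurons, Eif4e1b, known from oocytes, and Eif4ebp3, the third of the inhibitors of eIF4E. The 10 genes with the highest level per base took 72.8% of the counts of the family over replicates 1, 3 and 4, and 5 of them have opposite-strand exons.

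Levels were set per length as TPM, the count per exonic base scaled to the sum over all genes of a library, and each gene was compared with 1 TPM by limma on log2(TPM + 0.1) with Benjamini-Hochberg adjustment over all 14282 genes tested. Of 60 factor genes with a mean count of 1 or more, 48 lay above 1 TPM, 1 below and 11 on neither side. Over all genes tested 43.1% lay above and 8.31% below, and among autosomal protein-coding genes 36.9% lay above. Every one of the 4 genes of the eIF1 family and of the 13 tested eIF3 genes lay above. The shares were 8 of 13 in the eIF2 group, 11 of 14 in the eIF4 group, 4 of 5 for eIF5 and eIF6 and 8 of 11 for elongation. With replicate 2 added, 18 factor genes lay above and 2 below, and over all genes 13.3% lay above and 13.2% below.

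**Figure D1:**
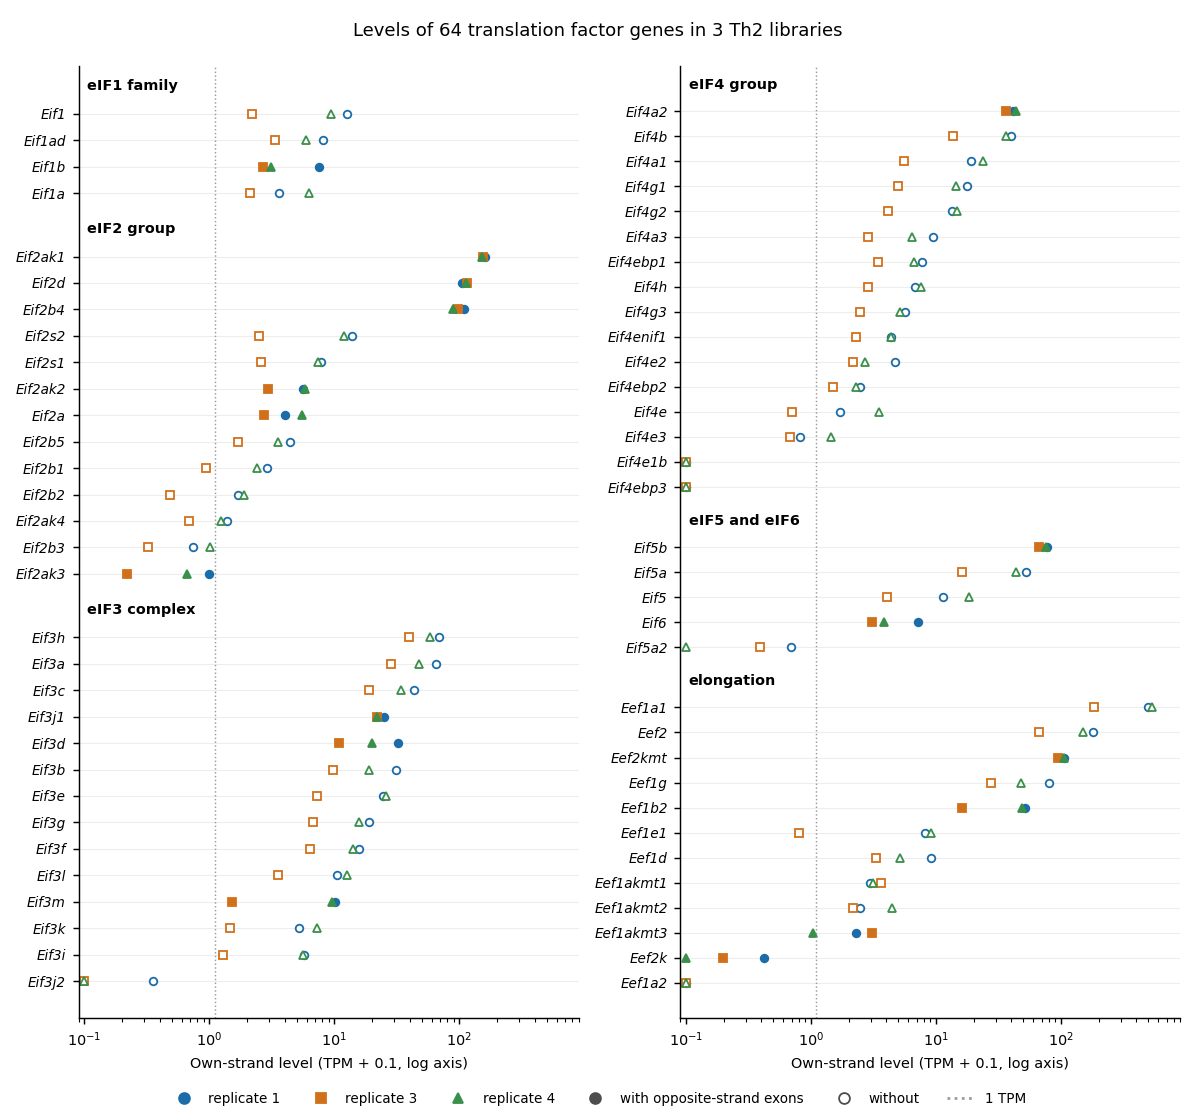
Own-strand level of each of the 64 factor genes in replicates 1, 3 and 4 (TPM + 0.1, log axis), grouped by role and sorted by mean, with filled symbols for genes that have opposite-strand exons. Replicate 3 (squares) sits to the left of the other libraries for most open symbols, while the filled symbols of Eif2ak1, Eif2d, Eif2b4, Eif5b and Eef2kmt lie together at 66.1 to 160 TPM.

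The factor gene with the highest level encodes an elongation factor. The median of the elongation group, at 5.83 TPM, lay below those of the eIF3 complex (16.4 TPM) and of eIF5 and eIF6 (11.1 TPM). Eef1a1, which delivers aminoacyl-tRNAs to the ribosome, had 2057, 6, 622 and 1578 counts in replicates 1 to 4, or 494, 182 and 534 TPM in replicates 1, 3 and 4 (403 ± 193 TPM, SD, n = 3). Eef2, which moves the ribosome by a codon, had 991, 3, 301 and 592 counts and stood at 132 ± 58.5 TPM. Both were lowest in replicate 3, and neither has opposite-strand exons.

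Among the subunits of the exchange factor of eEF1A, Eef1g stood at 80.1, 27.5 and 47.7 TPM in replicates 1, 3 and 4. Eef1b2, a subunit that exchanges the nucleotide, stood at 51.3, 16.1 and 48.6 TPM. Eef1d was far lower per length, at 8.93, 3.22 and 5.01 TPM. Eef1e1, a component of the multi-synthetase complex in spite of its name, had 14, 0, 1 and 11 counts and was not placed on either side of 1 TPM (adjusted p = 0.0807, limma).

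Eef2kmt, the methyltransferase of eEF2, differed little between libraries, at 106, 94.8 and 105 TPM, and does have opposite-strand exons. Eef2k, the kinase that inhibits eEF2, had 4, 0, 1 and 0 counts and was the gene below 1 TPM, at −2.44 on the log2 scale (95% interval −3.92 to −0.95, adjusted p = 0.0176, limma). That call was lost when any one of replicates 1, 3 and 4 was left out. The methyltransferases of eEF1A, Eef1akmt1, Eef1akmt2 and Eef1akmt3, had 11, 21 and 24 counts in all over the 3 libraries.

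In the eIF2 group the levels ran from 0.525 TPM for Eif2ak3 to 155 TPM for Eif2ak1 (means over 3 libraries). Eif2ak1, the heme-regulated kinase of eIF2, had 1513, 0, 1205 and 1016 counts and stood at 160, 155 and 151 TPM, second among the factor genes. Eif2d, which can deliver tRNA to the ribosome apart from eIF2, stood at 104, 115 and 113 TPM. Eif2b4, the delta subunit of the exchange factor eIF2B, stood at 109, 97.2 and 88.6 TPM. These 3 genes, all with opposite-strand exons, were at least at 88.6 TPM in each of replicates 1, 3 and 4, and the next of the group, Eif2s2, reached 13.6 TPM at most.

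The subunits of eIF2 itself stood well under these levels. Eif2s2, the beta subunit, had 154, 2, 22 and 95 counts (13.6, 2.38 and 11.9 TPM), and Eif2s1, the alpha subunit that the kinases phosphorylate, had 64, 1, 17 and 43 counts (7.74, 2.51 and 7.33 TPM). The other subunits of eIF2B ran from Eif2b5, the catalytic subunit, at 3.10 ± 1.38 TPM, through Eif2b1 at 1.97 ± 1.01 and Eif2b2 at 1.25 ± 0.758, to Eif2b3 at 0.591 ± 0.344 TPM (SD, n = 3). The proteins of eIF2B form 1 complex, yet the counts per base of Eif2b4 and of the other 4 genes did not overlap in any library of replicates 1, 3 and 4.

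Of the other eIF2 kinases, Eif2ak2 (the double-stranded RNA kinase PKR) had 47, 0, 20 and 35 counts and lay above 1 TPM. Eif2ak4 (GCN2, which senses uncharged tRNA) had 16, 0, 6 and 10 counts, and Eif2ak3 (PERK, the kinase of the endoplasmic reticulum) had 9, 0, 1 and 4. Neither was placed on a side of 1 TPM (adjusted p = 0.922 and 0.199, limma). Eif2a, a factor unrelated to the subunits of eIF2, stood at 3.91, 2.62 and 5.38 TPM.

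Subunits of eIF3, the scaffold that holds the small subunit and the mRNA together, were led by Eif3h at 68.8, 39.6 and 57.9 TPM and Eif3a, the largest subunit, at 65.5, 28.3 and 47.6 TPM. Eif3c followed at 43.0, 18.7 and 34.1 TPM, then Eif3j1 at 24.8, 21.9 and 21.8 TPM and Eif3d, a subunit that can bind the cap of selected mRNAs, at 32.0, 10.7 and 19.9 TPM. The remaining subunits Eif3b, Eif3e, Eif3f, Eif3g, Eif3i, Eif3k, Eif3l and Eif3m had means of 4.10 to 19.8 TPM. Neighbours in this order mostly overlapped within their spread over libraries. Eif3j2 had 1 count, and its longest coding sequence matched that of Eif3j1 at 100% of 783 aligned bases, so the counts of these 2 genes could be divided between them by the mapping and are uncertain.

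In the eIF4 group the RNA helicase gene Eif4a2 led at 41.0, 36.0 and 43.8 TPM. Eif4b, which stimulates the helicase, stood at 39.8, 13.6 and 36.3 TPM. Eif4a1 stood at 18.9, 5.39 and 23.5 TPM, and the scaffold Eif4g1 at 17.7, 4.85 and 14.2 TPM. Eif4g2, a scaffold that lacks the site for eIF4E, stood at 13.2, 4.02 and 14.5 TPM, and Eif4g3 at 5.52, 2.37 and 5.03 TPM. The second stimulator of the helicase, Eif4h, stood at 6.69, 2.76 and 7.45 TPM.

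The cap-binding protein gene Eif4e had 16, 0, 5 and 24 counts (1.59, 0.607 and 3.37 TPM) and was not placed on a side of 1 TPM (adjusted p = 0.436, limma). Eif4e2, a cap-binding repressor, had 58, 0, 21 and 23 counts (4.63, 2.04 and 2.59 TPM), and Eif4e3 had 3, 0, 2 and 4 counts. Of the inhibitors that bind eIF4E, Eif4ebp1 stood at 7.63, 3.32 and 6.53 TPM and Eif4ebp2 at 2.38, 1.39 and 2.19 TPM. Eif4enif1, which carries eIF4E into the nucleus, stood at 4.23, 2.18 and 4.24 TPM.

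Eif5b, the GTPase that joins the ribosomal subunits, had 1257, 1, 883 and 875 counts and stood at 77.2, 66.1 and 75.7 TPM. Eif5a, the hypusine-bearing factor that helps the ribosome through difficult peptides, stood at 52.6, 16.0 and 43.3 TPM. Eif5, which makes eIF2 hydrolyse its GTP, stood at 11.2, 3.95 and 18.1 TPM, and Eif6, which keeps the large subunit free, at 7.09, 2.97 and 3.75 TPM. The second hypusine gene, Eif5a2, had 5, 0, 2 and 0 counts. In the eIF1 family, whose members act in start codon choice, Eif1 had 44, 0, 6 and 23 counts, Eif1a 17, 0, 8 and 21, and Eif1b 14, 0, 4 and 4. Eif1ad, a relative of eIF1A, had 33, 0, 11 and 17. The means of these 4 genes were 3.91 to 7.96 TPM and overlapped within their spread.

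Near copies were compared pair by pair over 12 pairs, per length and within each library. The helicases show how alike such copies are. The windows below are the coding bases around the DEAD motif that names this helicase family, with the codons of its 4 residues in capitals. They come from the GENCODE vM21 transcripts (GRCm38), and the window of Eif4a3 spans an intron. Over these 60 bases Eif4a2 differed from Eif4a1 at 8 positions and Eif4a3 at 17.
Eif4a1, chr11:69668689-69668748, minus strand: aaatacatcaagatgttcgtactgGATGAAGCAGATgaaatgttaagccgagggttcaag
Eif4a2, chr16:23110239-23110298, plus strand: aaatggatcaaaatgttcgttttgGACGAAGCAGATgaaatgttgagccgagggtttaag
Eif4a3, chr11:119294026-119294376, minus strand: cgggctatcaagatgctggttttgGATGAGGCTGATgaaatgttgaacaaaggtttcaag

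Eif4a2 exceeded Eif4a1 in 3 of 3 libraries. On the log2(TPM + 0.1) scale Eif4a1 minus Eif4a2 was −1.11, −2.72 and −0.89 in replicates 1, 3 and 4, and the pooled count per base of Eif4a2 was 2.54 times that of Eif4a1 (95% counting interval 2.22 to 2.91). Eif4a2 has opposite-strand exons and Eif4a1 has none. Eif4a1 in turn was 2.49 times Eif4a3 (1.87 to 3.37), a component of the exon junction complex, also in 3 of 3. Eif4g1 was 2.88 times Eif4g3 (2.43 to 3.43) in 3 of 3, whereas Eif4g1 and Eif4g2 changed order between libraries. Eif4ebp1 was 2.96 times Eif4ebp2 (1.97 to 4.44) in 3 of 3. Eif5a was 116 times Eif5a2 (55.6 to 290). Eef1a1 was at least 1186-fold higher than Eef1a2, which was set to the floor of 3 counts in all.

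The orders of Eif4e and Eif4e2, Eif1 and Eif1b, and Eif1a and Eif1ad each turned in 1 library. Eif2ak4 exceeded Eif2ak3 in 3 of 3, at a pooled 1.85 times whose interval, 0.958 to 3.75, includes equal levels. With 3 libraries an exact permutation of the signs (two-sided) cannot go below 0.25, which the 8 pairs with 1 order in all libraries reached, and all adjusted values were 0.375 or 0.5. None of the pairs therefore passed the test.

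Gm17638, an annotated antisense gene inside Eif3d, had the highest count of all genes opposite a factor gene. It had 15074, 22, 12637 and 10939 counts in replicates 1 to 4, against 102, 0, 28 and 45 for Eif3d. Eif3d lies at chr15:77958998-77970824 on the minus strand (mm10), and Gm17638 at chr15:77961674-77967126 on the plus strand. They share 625 bases, 32.7% of the exonic bases of Eif3d and all of them coding. Per base Gm17638 was 97.1 times Eif3d in the pooled counts (95% counting interval 83.7 to 113), and 65.0, 198 and 107 times in replicates 1, 3 and 4. Its CPM was 6312, 6548 and 6385 in these libraries while that of Eif3d was 42.7, 14.5 and 26.3, so the antisense gene was even across libraries and Eif3d was not.

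**Figure D2:**
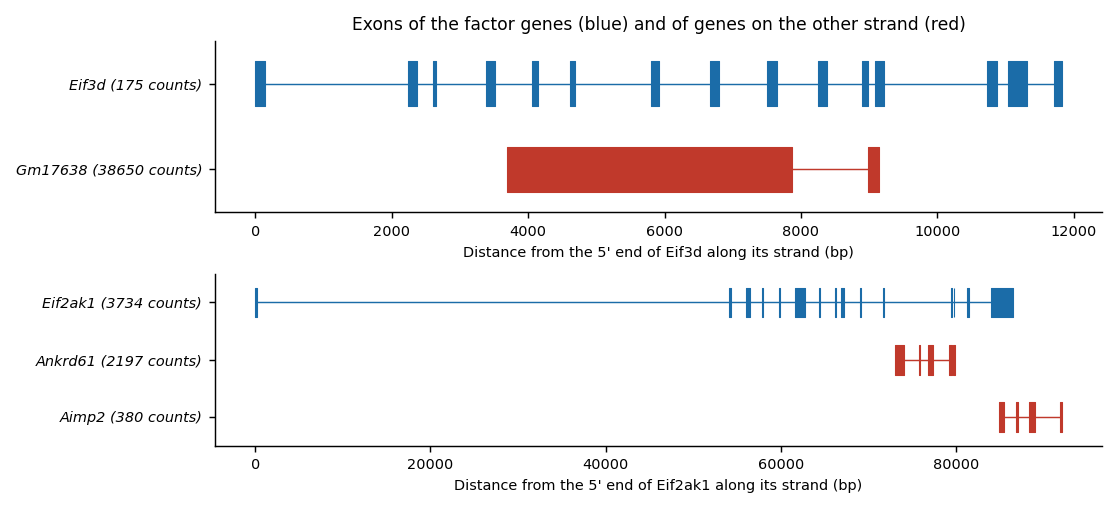
Exons (boxes) of Eif3d and of Eif2ak1 in blue and of the genes on their other strand in red, by distance from the 5' end of the factor gene in bp, with counts summed over replicates 1, 3 and 4. The 2 exons of Gm17638 cover introns and several coding exons of Eif3d, and Gm17638 has 38650 counts against 175, while Ankrd61 and Aimp2 cross the last exons of Eif2ak1.

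Noncoding genes had the higher count per base in 6 of 8 pairs in each of replicates 1, 3 and 4, and the factor gene in the other 2. Among all autosomal protein-coding genes with a noncoding partner these shares were 86.0% and 10.3%, so the lead of noncoding genes is not particular to the factor genes. Gm43292, whose biotype marks it as still to be tested by experiment, lies inside Eif2ak3 over 485 coding bases and had 436, 0, 432 and 319 counts, 209 times Eif2ak3 per base (124 to 383). Gm15774, inside Eef2k over 101 coding bases, had 78, 0, 67 and 59 counts, 139 times Eef2k per base (58.6 to 432). Gm26637, which starts head to head with Eif2ak2, had 265, 0, 279 and 199 counts and was 16.3 times Eif2ak2 per base (13.2 to 20.2). The ribosomal RNA gene n-R5s29 with 12 counts and D830035M03Rik, opposite Eif1b, with 27 were the remaining ones. D830035M03Rik was 1.33 times Eif1b per base, with an interval of 0.727 to 2.44 that includes equal levels. Gm15983 and Gm16098 were lower per base than Eef2kmt and Eif6.

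Protein-coding neighbours had the higher count per base in all 3 libraries in 2 of 12 pairs, the factor gene in 8, and the order changed between libraries in 2. Among all autosomal protein-coding genes with a protein-coding partner, 46.9% of pairs went each way. Ankrd61, an ankyrin repeat gene, had 845, 1, 745 and 607 counts and was 1.43 times Eif2ak1 per base (1.36 to 1.51), and Ccdc73 was 4.44 times Eif3m (3.49 to 5.71). On the other side stood Rassf5, a Ras effector, at 0.0933 times Eif2d (0.0797 to 0.109) and Rev1, a polymerase of DNA repair, at 0.123 times Eif5b (0.107 to 0.141) with 1643 shared bases. Rfc4, a clamp loader subunit, was at 0.0730 times Eif4a2 (0.0437 to 0.115), and Ndufs1, which shares 9 bases, at 0.0389 times Eef1b2 (0.0286 to 0.0519).

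Aimp2, a scaffold of the multi-synthetase complex, had 157, 1, 117 and 106 counts opposite the end of Eif2ak1 and was at 0.349 times it per base (0.313 to 0.388). Snx17 at 0.502 times Eif2b4, Spg11 at 0.502 times Eif3j1 and Alg1 at 0.625 times Eef2kmt lay nearer to equality. Mettl1 against Eef1akmt3 and Serp1 against Eif2a changed order. Over all 4027 such pairs of autosomal protein-coding genes, 63.5% had the higher count per base on the opposite-strand gene in the 3 libraries and 31.4% on the gene itself. For the factor genes the numbers were 8 and 10 of 20. With noncoding partners the background was 86.0% and 10.3%, and with protein-coding partners 46.9% and 46.9%.

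**Figure D3:**
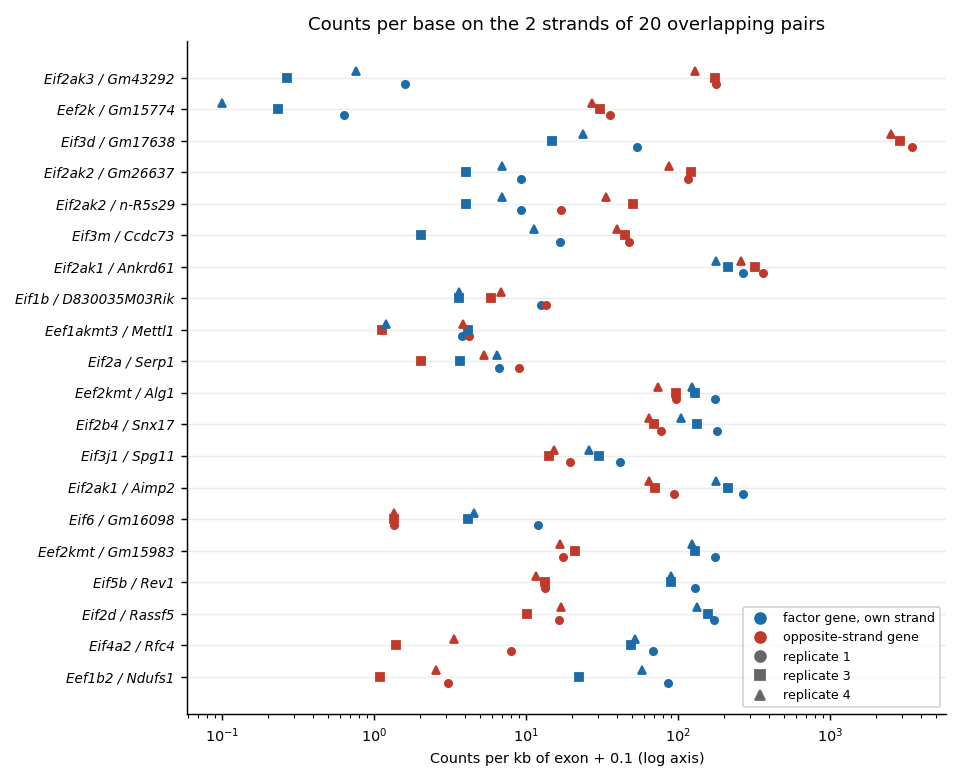
Counts per kb of exon (+ 0.1, log axis) of each factor gene (blue) and its opposite-strand gene (red) for the 20 pairs in replicates 1, 3 and 4, sorted by the pooled ratio. For Eif3d the red points lead by 65.0 to 198 times, and for Eef1b2 at the bottom the blue points lead by 22.4 to 28.9 times.

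Taking the counts of the 20 pairs together, with each gene counted once, the factor genes' own strand held 25.3%, 22.9% and 24.3% in replicates 1, 3 and 4 and 24.2% pooled (Wilson 95% interval 23.9 to 24.6). Most of the counts on the other strand were those of Gm17638. Without it, a setting added after the data were seen, the own strand held 66.8%, 62.7% and 64.8%, and 65.0% pooled. The 17 factor genes with opposite-strand exons took 47.4%, 69.0% and 48.7% of the counts of the family in replicates 1, 3 and 4. Over all autosomal protein-coding genes those with opposite-strand exons took 84.0%, 90.3% and 85.1%.

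The level of the factor genes with opposite-strand exons was higher than that of the other 47. Their median TPM was 24.8 against 7.74 in replicate 1, 10.7 against 2.51 in replicate 3 and 19.9 against 6.53 in replicate 4. On the log2(TPM + 0.1) scale the difference of medians was 1.67, 2.05 and 1.59 (1.77 ± 0.25, SD, n = 3), with an exact two-sided sign-flip p of 0.25, the smallest that 3 libraries allow. Over all autosomal protein-coding genes the same difference was 4.03 ± 0.40, where the median TPM of those without opposite-strand exons was 0 in each library. Among those with a count, which are 59.9% of them against 95.3% of the factor genes, it was 1.72 ± 0.23. The factor genes thus lay near the background of counted genes only.

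To see whether a library stood apart, each of replicates 1, 3 and 4 was set against the other 2 with edgeR's quasi-likelihood test, which compares libraries and assumes that the lone one varies like the others. The spread then comes from the other 2 libraries alone, with a biological coefficient of variation of 0.310, 0.141 and 0.337 when replicates 1, 3 and 4 were set apart. Calls are thus harder to reach for replicates 1 and 4, whose reference holds replicate 3, and no call here is a replicated difference. Replicates 1 and 4 gave no called factor gene among the 48 with a mean count of 10 or more. At an unadjusted p under 0.05 there were 4 and 1 by edgeR and 1 and 0 by DESeq2, which called none either. Over all 6922 genes edgeR called 0.0289% higher and 0% lower in replicate 1, and 0.0144% higher and 0.0289% lower in replicate 4.

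In replicate 3, edgeR with TMM scaling put 23 of the 48 factor genes lower and none higher, where other scalings gave 16 or 5 lower and up to 7 higher. Over all 6922 genes adjusted together, 12.4% were lower and 2.79% higher. The 23 included Eef1a1 at −1.33 (log2 fold change against replicates 1 and 4), Eef2 at −1.15 and Eif2s2 at −2.26. Eif4g2 stood at −1.62, Eif4a1 at −1.80, Eif4g1 at −1.56, Eif4b at −1.32 and Eif5a at −1.43. By role the other called genes were Eef1b2, Eef1g, Eif1, Eif2s1, Eif3a, Eif3b, Eif3c, Eif3d, Eif3e, Eif3i, Eif3k, Eif3m, Eif4g3, Eif4h and Eif5, at −2.59 to −0.84.

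This count depended on the scaling and the tool. DESeq2 called 4 of 30 genes with an adjusted p lower (Eef1a1, Eef2, Eif2s2 and Eif4g2) and none higher, against 1.05% lower and 0.583% higher over all genes. edgeR with RLE factors called 16 lower, against 5.48% lower and 3.06% higher over all genes. With TMM factors from genes without opposite-strand exons, added after the data were seen, 5 were lower (Eif2s2, Eif4g2, Eef1a1, Eif4a1 and Eif3m) and 7 higher (Eif2ak1, Eif2b4, Eif2d, Eif3j1, Eif4a2, Eif5b and Eef2kmt, at 0.76 to 1.08), so the direction of Eif4a2 and Eif5b turned from −0.07 and −0.05. Over all genes 1.7% were lower and 39.9% higher under that scaling. It moved the median log2 fold change of all genes from −0.11 to 0.71. When genes without opposite-strand exons were fitted alone, 1 of 35 factor genes (Eif2s2, −1.42) was called lower and Eif3a turned from −0.84 to 0.0077, against 0.621% lower and 4.51% higher over all genes fitted.

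The classes differed within the family in replicate 3. All 35 tested factor genes without opposite-strand exons had a negative log2 fold change under TMM scaling (31 under the scaling by genes without opposite-strand exons, 30 when those were fitted alone). Their median was −1.22, where the median over all 3060 such genes was −0.82. Of the 13 with opposite-strand exons 8 were negative, with a median of −0.07, against 0.12 over all 3862 such genes. Under the scaling by genes without opposite-strand exons these medians were −0.39 and 0.76 for the factor genes, against 0.00022 and 0.95 for all genes of each class. The 3 called genes with opposite-strand exons were Eif3d, Eif3m and Eef1b2.

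Scaled by library totals alone, the CPM of replicate 3 was 0.394 times the mean of replicates 1 and 4 at the median of the 35 genes (0.190 to 0.638), with replicate 3 lowest for each of them. The median was 0.865 for the 13 genes (0.148 to 1.08) and 1.03 for the 15 opposite-strand genes with 30 or more counts (0.299 to 1.28). Eif3d and Gm17638 show this within 1 locus, at 0.421 and 1.03. Eif2ak1, at 1.02, and its neighbours Ankrd61, at 1.09, and Aimp2, at 0.950, were all even. Other loci differed, and 5 of the 15 opposite-strand genes lay under 1. Eef1b2 and Ndufs1 were both lower, at 0.330 and 0.382, as were Eif2a and Serp1, at 0.577 and 0.299. Rassf5 was at 0.616 opposite Eif2d at 1.08.

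**Figure D4:**
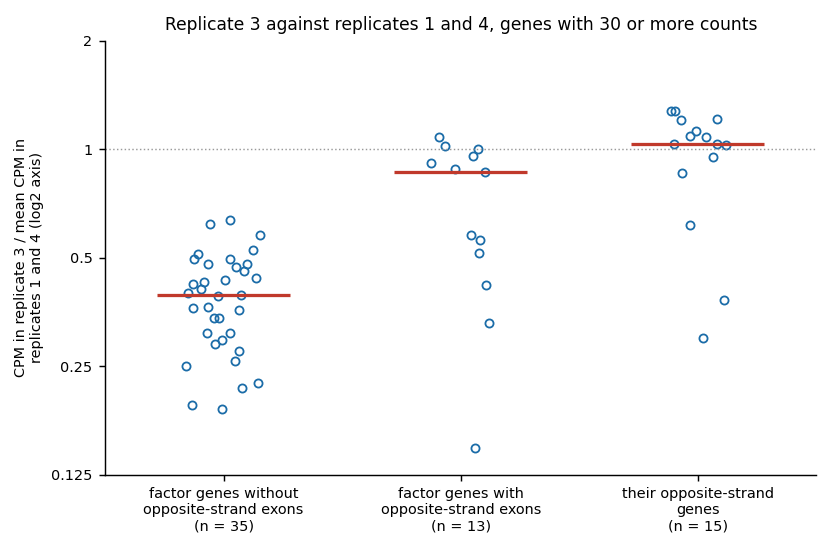
CPM in replicate 3 over the mean CPM of replicates 1 and 4 (log2 axis) for factor genes without opposite-strand exons, factor genes with them, and their opposite-strand genes, each circle 1 gene with 30 or more counts over the 3 libraries, red lines for medians. Scaled by library totals, the 35 genes of the left column all lie below 1, between 0.190 and 0.638, whereas the median of the right column is 1.03.

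Some marker lists were lower in replicate 3 and others were not. The summed level of the 5 T cell genes was 100.1, 33.2 and 108 TPM in replicates 1, 3 and 4, and that of the 6 Th2 genes 189.9, 106 and 189 TPM. Within the Th2 list Il13 stood at 96.4, 18.8 and 81.9 TPM, whereas Il4, at 31.7, 47.6 and 40.6 TPM, was highest in replicate 3. Ptgdr2, which has opposite-strand exons, stood at 32.8, 26.8 and 30.9 TPM. Gata3, at 9.18, 2.94 and 8.48 TPM, and Il5, at 6.23, 3.32 and 6.04 TPM, also have such exons and were lowest in replicate 3. So was Cd3e of the T cell list, which has them too, at 4.11, 1.61 and 5.38 TPM. The regulatory T cell list was even at 90.9, 90.9 and 92.1 TPM, nearly all of it Foxp3, which has opposite-strand exons. The myeloid list stood at 134, 136 and 152 TPM, nearly all of it Csf1r, which has opposite-strand exons, with Itgam at 0. The B cell list stood at 2.05, 5.51 and 9.84 TPM, with Ms4a1 at 0, and both natural killer genes were at 0. The part of these in the result was not tested, and in bulk RNA fewer cells of a type and less RNA per cell cannot be told apart.

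Other genes of translation were listed beside the factors, from the poly(A)-binding proteins to mitochondrial factors and release factors. Of 48 tested, 30 lay above 1 TPM and 1 below (Dph2, which acts in the diphthamide modification of eEF2). The highest were Mtif3, a mitochondrial initiation factor, at 438 ± 15.4 TPM, Tpt1, an abundant growth-related protein, at 84.0 ± 42.4, Cyfip1, which binds eIF4E, at 79.4 ± 4.12, Ncbp2, of the nuclear cap-binding complex, at 67.8 ± 6.07 and Gfm2, a mitochondrial recycling factor, at 58.2 ± 4.96 TPM (SD, n = 3). Mtif3, Cyfip1 and Gfm2 have opposite-strand exons.

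In replicate 3 edgeR with TMM scaling put 10 of the 38 tested genes of this list lower and none higher, against 12.4% lower and 2.79% higher over all genes. The lower genes were Abce1, Atf4, Ddx3x, Dhx29, Etf1, Pabpc1 and Tpt1 without opposite-strand exons, and Gspt1, Ppp1r15b and Rps6kb2 with them. The other scalings were run over all genes, but their values were not read out for this list. Pabpc1, the main cytoplasmic poly(A)-binding protein, stood at −1.52 and Atf4, the transcription factor translated when eIF2 is phosphorylated, at −1.40. The median over the list was −1.24 for the 22 genes without and 0.06 for the 16 with opposite-strand exons, against −0.82 and 0.12 over all genes of each class.

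Exons of 10 factor genes are shared with another gene on the same strand, namely Eif3j1, Eif3j2, Eif4a1, Eif4a2, Eif4e, Eif4e3, Eif4ebp3, Eif4g2, Eef1a1 and Eef1b2. Fragments that fall on both genes can be lost or divided in such counts, so the levels of these genes, and the absence of counts for Eif4ebp3, are uncertain.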

How the data were processed

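Gene counts of total RNA from 4 Th2 libraries were used. The authors deposited raw counts of fragments, obtained with featureCounts 1.4.6-p4 from STAR alignments over GENCODE vM13 exons on mm10 (strand setting 1, both mates mapped), per the file headers. STAR's version is not given in those headers. Symbols and biotypes came from GENCODE vM21 (224 of 50600 identifiers without one). Opposite-strand exons (1 shared base or more) were found with bedtools 2.31.1. TPM and CPM were computed from the counts. Levels were tested with limma 3.58.1 (pseudocount 0.1, mean count of 1 or more, trended prior) and single libraries with edgeR 4.0.16 (TMM, mean count of 10 or more), at an adjusted p of 0.05, in R 4.3.3, with DESeq2 1.42.0 as an alternative. Pairs needed 30 counts over replicates 1, 3 and 4. Both tests were tested on simulated counts with a fixed spread. The simulation held no shift of a whole gene class, so calls that depend on the scaling were not covered. All factor genes could be named, with every library's values for the 5 highest of each role, called genes, near copies and genes without counts. Of other translation genes, 49 of 51 names were found, and the 5 highest and those called were named. Members and lists were chosen with earlier results of these data known. Fragments carry no molecular identifiers, and every interval or floor covers counting error alone.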

Additional observations from a re-analysis of the deposited data

Results flagged for a closer look

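A few signals lie outside the comparisons made above. Replicate 2, left out of the main tests for its 5016 counts, still held 6 counts of Eef1a1 and 22 of Gm17638, both above its floor of 3 counts. Factor genes of the sex chromosomes, left out by the autosomal rule, had counts over replicates 1, 3 and 4 above that floor, with 28 for Eif2s3x, 89 for Eif1ax and 19 for Eif2s3y. Eif2s3x had 20, 0, 1 and 7 counts in replicates 1 to 4 and Eif1ax had 42, 0, 11 and 36, both lowest in replicate 3 among the 3 deep libraries, while the Y-linked Eif2s3y had 0, 0, 4 and 15.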

How the results depend on the processing

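No paired analysis was possible because all libraries belong to a single group. Of the alternatives tried for the main results, 116 values kept their direction or stayed near the main value, 16 moved and 1 turned. Nearness of a count was set by its fold difference and not by an error. Values held as the same include the near copies, whose sign-flip test cannot pass in any setting. They also include replicates 1 and 4, which had no called factor gene in any setting. The factor genes with opposite-strand exons numbered 7 at 200 shared bases or more, in place of 17. The own-strand share was 65.0% without Gm17638. The opposite-strand gene led in 5 pairs when 300 counts were required. With 4 libraries, Eif4ebp1 over Eif4ebp2 turned to −1.17 on the log2 scale, through 1 count of Eif4ebp2 in replicate 2. The genes above 1 TPM numbered 18 with 4 libraries and 43 to 52 when a replicate was left out. Those below 1 TPM numbered 2 with a pseudocount of 0.5 or 1, without a filter, with 4 libraries and with TPM rescaled by genes without opposite-strand exons, and 0 when any of replicates 1, 3 and 4 was left out. For replicate 3, the lower factor genes numbered 4 with DESeq2, 5 (with 7 higher) under TMM from genes without opposite-strand exons, and 1 when those genes were fitted alone. Under these last settings the sign changed for Eif5b (−0.05 to 0.78), Eif4a2 (−0.07 to 0.76) and Eif3a (−0.84 to 0.0077). Eif5b and Eif4a2 had not been called in the main fit, and Eif3a lost its call. The causes were not tested. Leaving out a replicate in the comparison of single libraries leaves 1 library a side and no test. Depth limits genes of few counts: replicate 2 detects no level below 598 CPM.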
